A study of Mus musculus with 2 samples.

Results

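The 35 genes described here encode the carriers that bring glucose into cells, the enzymes of glycolysis, the enzymes that set its rate, and the proteins that handle its product pyruvate. They were chosen by symbol from a list of the pathway by a rule that uses no measured values, though with earlier results of these data known, and all 35 were matched by identifier among 43346 mouse genes. Lungs of B6NCrl mouse embryos were collected at embryonic day 14.5, when the airways are still branching and no air sacs exist. Total RNA of at least 200 nt was sequenced as 2 libraries, biological replicate 2 and biological replicate 1 of a single group, each from 10.0 ng of RNA with spike-in RNA added. No treatment, mutant or second age was part of the design, so the data answer at which level each gene was expressed and how far the libraries differed. Replicate 2 was collected on day 17 of July and replicate 1 on day 15. The labels call each sample a mix of male and female tissue and also the lung of 1 pup, and give both the same donor identifier, and how many animals each library holds is unclear.

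Glycolysis splits a glucose molecule into pyruvate in a fixed chain of reactions and yields ATP without oxygen. Most of its reactions can be run by several related enzymes, called isozymes, which are encoded by separate genes and are known from different tissues, such as muscle, liver or brain. Pyruvate is then either reduced to lactate and exported, or taken into mitochondria. There the pyruvate dehydrogenase complex uses it, and pyruvate dehydrogenase kinases switch that complex off. Growing embryonic and cancer tissues are known for the M2 form of pyruvate kinase, while adult muscle and brain are known for the M1 form.

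The M1 and M2 forms come from the same gene, Pkm, by the choice between a pair of neighbouring exons, which are shown because the balance of the isoforms rests on them. Each exon is 167 nt long and is exon 9 of the 11 in its transcript. On the plus strand of GRCm38 (mm10), from GENCODE M21, the M1 exon lies at chr9:59675029-59675195 and the M2 exon at chr9:59675568-59675734, with 372 nt between them. Capitals mark the 64 positions at which the exons differ, which leaves an identity of 61.7%.
Pkm M2 exon: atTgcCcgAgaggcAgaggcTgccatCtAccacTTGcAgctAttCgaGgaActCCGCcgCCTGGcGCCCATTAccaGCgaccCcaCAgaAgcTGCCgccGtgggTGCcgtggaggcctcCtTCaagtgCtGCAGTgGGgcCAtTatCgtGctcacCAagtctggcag
Pkm M1 exon: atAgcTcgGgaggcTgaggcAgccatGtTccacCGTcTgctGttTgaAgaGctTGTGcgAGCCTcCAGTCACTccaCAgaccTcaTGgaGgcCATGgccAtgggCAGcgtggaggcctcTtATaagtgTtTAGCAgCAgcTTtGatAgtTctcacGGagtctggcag

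Hk1, which encodes hexokinase I, has alternative first coding exons on the minus strand of GRCm38, and these decide how the enzyme begins. The first coding exon of transcript Hk1-202, at chr10:62340013-62340075, encodes the start of the hydrophobic end with which hexokinase I binds mitochondria. Transcript Hk1-201 begins with other exons, at chr10:62358336-62358362 and chr10:62353058-62353105. It also holds an internal coding exon of 69 nt that Hk1-202 lacks, at chr10:62291975-62292043, which is not printed, so the transcripts differ in more than their start. Capitals mark the start codon, and the sequences are from GENCODE M21.
Hk1-202 first coding exon: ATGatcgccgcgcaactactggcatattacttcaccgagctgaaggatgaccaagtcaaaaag
Hk1-201 exon 1: ATGggacagaactgccagcgaggacag
Hk1-201 exon 2: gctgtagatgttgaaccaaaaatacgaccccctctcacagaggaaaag

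Summed expected counts on mouse genes, which are estimated read numbers, were 33167255 in replicate 2 and 31940637 in replicate 1. The labelled tissue was checked against markers. All 8 lung epithelium, all 8 lung mesenchyme and all 8 endothelium markers were detected in both libraries. None was called between the libraries in the test described below. At any size, 3 epithelium markers passed its adjusted p as lower in replicate 2. Of the mesenchyme markers 1 passed as higher and 4 as lower, and of the endothelium markers 1 and 2. Over all genes tested, 11.0% passed as higher and 11.5% as lower. Levels are in TPM, the authors' length-corrected abundance, so they can be set against each other across genes. The libraries differed in muscle and neutrophil markers, whose values stand beside the results they touch below. In a whole tissue, fewer cells of a type and less RNA per cell cannot be told apart.

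The glycolytic genes as a group stood high in the E14.5 lung. A TPM of 1 or more in both libraries was found for 31 of the 35 genes, or 88.6%, against 58.8% of 21474 protein-coding genes. The median of their mean levels was 20.56 TPM, against 4.10 TPM over all protein-coding genes. Within a library, the median over the 35 genes was 21.03 TPM in replicate 2, against 21.4 TPM in replicate 1. Of the genes, 11 exceeded 100 TPM in both libraries and 4 exceeded 1000 TPM, namely Gapdh, Ldha, Eno1 and Pkm. Together the 35 genes took 0.957% of the counts on mouse genes in replicate 2, against 0.937% in replicate 1. The 4 genes below 1 TPM in at least 1 library were Slc2a2, Hk3, Pklr and Pdk4.

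**Figure D1:**
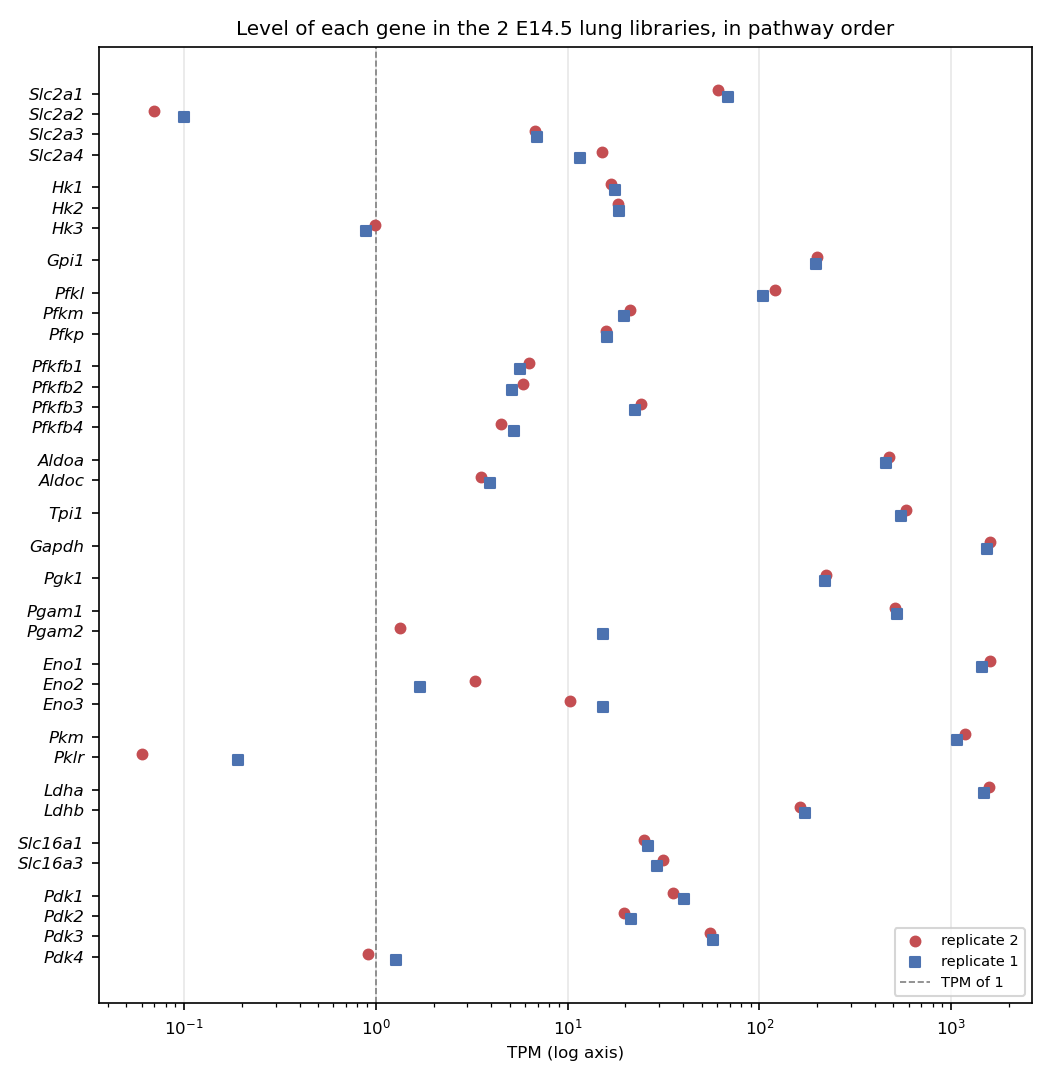
Level of each of the 35 genes in TPM on a log axis, in pathway order from glucose carriers to pyruvate dehydrogenase kinases, with circles for replicate 2 and squares for replicate 1 and a dashed line at a TPM of 1. The leading gene of each step from aldolase to lactate dehydrogenase lies at more than 200 TPM, and Pgam2 is the only gene whose symbols lie about a decade apart, at 1.33 TPM in replicate 2 and 15.4 in replicate 1.

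The highest of the 4 listed glucose carriers was Slc2a1, the carrier GLUT1 that supplies basal uptake in most cells. It had 60.8 TPM in replicate 2, against 68.6 TPM in replicate 1, which was 73.4% and 78.6% of the TPM of the 4 carriers in these libraries. Slc2a4, the insulin-responsive carrier GLUT4 of muscle and fat, had 15.2 TPM in replicate 2 and 11.6 in replicate 1. It came next of the 4 in both libraries. Slc2a3, the high-affinity carrier GLUT3 known from neurons, followed at 6.74 TPM in replicate 2, against 6.92 TPM in replicate 1. Outside these 4, Slc2a10 had 11.7 TPM in replicate 2 and 9.37 in replicate 1. Slc2a8 had 11.5 TPM in replicate 2 and 9.61 in replicate 1, so both stood above Slc2a3. Slc2a2, the low-affinity carrier GLUT2 of liver and pancreatic beta cells, had 3 counts in each library, no more than the 3 counts that a count of 0 allows.

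Hexokinases trap glucose in the cell by phosphorylating it, and no single hexokinase gene led. Hk2, the hexokinase that hypoxia and insulin are known to induce, had 18.2 TPM in replicate 2 and 18.6 in replicate 1. Hk1, the hexokinase found in most tissues, had 16.9 TPM in replicate 2, against 17.7 TPM in replicate 1. On the authors' posterior mean TPM, another estimate in the same tables, the order was the opposite, with 49.4% of the step for Hk1 and 46.7% for Hk2, so these neighbours cannot be ordered. Hk3, known from white blood cells, stood at 0.99 TPM in replicate 2 and 0.89 in replicate 1. Gpi1, the isomerase that turns glucose phosphate into fructose phosphate, is the only gene of its step and had 200.3 TPM in replicate 2, against 198 TPM in replicate 1.

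The committed step of the pathway was led by the liver-type gene. Pfkl, the liver-type phosphofructokinase, had 120.1 TPM in replicate 2 and 105 in replicate 1, or 76.5% and 74.6% of the TPM of the 3 phosphofructokinase genes. Pfkm, the muscle type, had 21.03 TPM in replicate 2, against 19.6 TPM in replicate 1. Pfkp, the platelet type, had 15.8 TPM in replicate 2 and 16.1 in replicate 1. Pfkl was therefore 5.71 times Pfkm in replicate 2 and 5.35 times in replicate 1.

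The PFKFB enzymes make and break the fructose bisphosphate that activates phosphofructokinase, and all 4 of their genes were detected. Pfkfb3, whose enzyme strongly favours synthesis, had 24.1 TPM in replicate 2, against 22.5 TPM in replicate 1. That was 59.2% of the TPM of the 4 genes in replicate 2 and 58.4% in replicate 1. Pfkfb1, known from liver, had 6.28 TPM in replicate 2 and 5.63 in replicate 1. Pfkfb2, known from heart, had 5.82 TPM in replicate 2, against 5.11 TPM in replicate 1. Pfkfb4, known from testis, had 4.52 TPM in replicate 2 and 5.28 in replicate 1. Pfkfb1 thus lay above Pfkfb2 and Pfkfb4 in each library, while the order of Pfkfb2 and Pfkfb4 differed between the libraries. In expected counts, which are not divided by length, the mean shares were 19.4% for Pfkfb4, 17.7% for Pfkfb2 and 8.88% for Pfkfb1.

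From aldolase to lactate dehydrogenase each step summed to more than 220 TPM, above phosphofructokinase, at 157 TPM in replicate 2, against 140.3 TPM in replicate 1, and hexokinase, at 36.1 and 37.2 TPM in the same libraries. Aldoa, the aldolase of muscle and most other tissues, had 474 TPM in replicate 2 and 457 in replicate 1. Aldoc, the brain aldolase, had 3.55 TPM in replicate 2, against 3.95 TPM in replicate 1, so that Aldoa held over 99.1% of the step in each library. Tpi1, which interconverts the triose phosphates and is alone in its step, had 578 TPM in replicate 2 and 550.1 in replicate 1. Gapdh, which oxidizes glyceraldehyde phosphate and is often used as a housekeeping gene, had 1586 TPM in replicate 2, against 1544 TPM in replicate 1. It ranked 42 among 21474 protein-coding genes. Pgk1, the X-linked kinase of the first ATP-making step, had 222 TPM in replicate 2 and 220.1 in replicate 1, the lowest sum of the steps from aldolase to lactate dehydrogenase.

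Phosphoglycerate mutase and enolase were each carried by 1 gene. Pgam1, the phosphoglycerate mutase of most tissues, had 512 TPM in replicate 2, against 522 TPM in replicate 1. Pgam2, the muscle mutase, had 1.33 TPM in replicate 2 and 15.4 in replicate 1, which was 0.259% and 2.86% of the step. Eno1, the enolase of most tissues, had 1587 TPM in replicate 2, against 1446 TPM in replicate 1, over 98.8% of the enolase TPM in each library. Eno3, the muscle enolase, had 10.2 TPM in replicate 2 and 15.2 in replicate 1. Eno2, the neuronal enolase, had 3.30 TPM in replicate 2, against 1.70 TPM in replicate 1. Pgam2, Eno3 and Eno2 were thus the genes with the largest ratios between the libraries among the 32 tested below.

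Pyruvate kinase, the last ATP-making step, was encoded almost wholly by Pkm. That gene had 1175 TPM in replicate 2 and 1073 in replicate 1. Pklr, the liver and red cell pyruvate kinase, had 3.63 expected counts in replicate 2 and 2 in replicate 1. Those counts lie at about the level that a count of 0 allows, so Pklr was not detectable at this depth.

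Lactate dehydrogenase was led by its A subunit. Ldha, whose subunit is known to favour lactate formation, had 1570.4 TPM in replicate 2, against 1491 TPM in replicate 1. Ldhb, whose subunit is known to favour pyruvate formation and is abundant in heart, had 164 TPM in replicate 2 and 173 in replicate 1. The ratio of Ldha to Ldhb was 9.59 in replicate 2 and 8.64 in replicate 1.

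Lactate carriers and the kinases of pyruvate dehydrogenase stood well below lactate dehydrogenase. Slc16a3, the lactate exporter MCT4, had 31.4 TPM in replicate 2, against 29.4 TPM in replicate 1. Slc16a1, the carrier MCT1, had 25.0 TPM in replicate 2 and 26.2 in replicate 1. On these levels Slc16a3 held 55.7% of the TPM of both carriers in replicate 2 and 52.9% in replicate 1, while in expected counts, which are not divided by length, Slc16a1 had 2419 in replicate 2 and 2528 in replicate 1 and Slc16a3 had 1391 and 1381 in the same libraries.

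Of the 4 pyruvate dehydrogenase kinases, Pdk3, which is X-linked, stood highest at 55.5 TPM in replicate 2, against 57.2 TPM in replicate 1. Pdk1, a known target of hypoxia-inducible factor, had 35.4 TPM in replicate 2 and 40.6 in replicate 1. Pdk2, the most widely expressed of these kinases in adult tissues, had 19.7 TPM in replicate 2, against 21.4 TPM in replicate 1. Pdk4, which fasting induces in adult tissues, had 0.91 TPM in replicate 2 and 1.27 in replicate 1. The order of Pdk3, Pdk1, Pdk2 and Pdk4 was the same in both libraries.

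**Figure D2:**
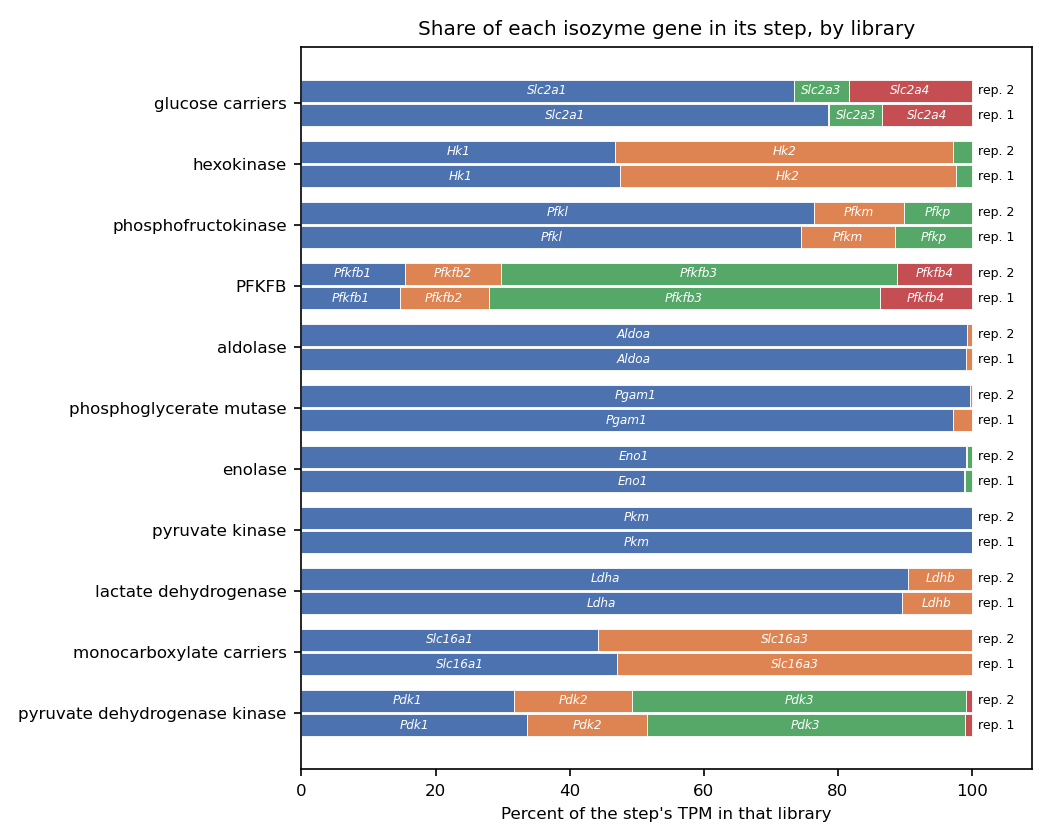
Percent of the summed TPM of a step held by each of its genes, for the 11 steps with several genes, with replicate 2 as the upper bar and replicate 1 as the lower bar of each pair. A single colour fills at least 80% of both bars in aldolase, phosphoglycerate mutase, enolase, pyruvate kinase and lactate dehydrogenase, while the other steps are shared among genes.

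The plot of shares by step divides the pathway into 5 steps in which 1 gene held at least 80% of the TPM in both libraries and 6 steps in which none did. All 5 lie in the lower pathway, from aldolase to lactate dehydrogenase. The leading pair of genes was closest in hexokinase, where Hk2 and Hk1 held 50.4% and 46.8% in replicate 2, and 50.01% and 47.6% in replicate 1. No test was made of these shares, which are values within a library and do not depend on scaling between libraries.

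The M2 exon dominated Pkm. Transcript Pkm-201, which holds the M2 exon printed above, had 1121 TPM in replicate 2, against 1018 TPM in replicate 1. Transcript Pkm-202, which holds the M1 exon, had 53.9 TPM in replicate 2 and 54.3 in replicate 1, with deposited intervals of 47.2 to 58.3 TPM in replicate 2 and 47.4 to 58.6 TPM in replicate 1. The deposited intervals appear to belong to the authors' posterior mean TPM, since that of Pkm-201, at 1082 to 1103 TPM in replicate 2 and 983 to 1003 TPM in replicate 1, holds its posterior mean of 1092 and 993 TPM in these libraries but not its TPM. The M2 share was thus 95.4% in replicate 2 and 94.9% in replicate 1. In the authors' tables Pkm-201 and Pkm-202 are both 2432 nt long, while Pkm-202 is 2041 nt in GENCODE M21, so its deposited model differs from the one used here. Reads that lie wholly within exons shared by both transcripts cannot separate them, so the split rests on the remaining reads.

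Hk1 was carried mainly by the transcript with the mitochondrial-binding start. Of 20 deposited Hk1 transcripts, 17 stood at 0 in both libraries. Hk1-202 had 12.1 TPM in replicate 2, against 12.3 TPM in replicate 1, or 71.6% and 69.7% of the gene. Hk1-201 had 4.73 TPM in replicate 2 and 5.31 in replicate 1, with deposited intervals, again of the posterior mean, of 2.23 to 5.95 TPM and 2.70 to 7.01 TPM in these libraries. The intervals of Hk1-201 overlapped widely between the libraries and lay below those of Hk1-202 in both.

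Aldoa used 1 main transcript. Aldoa-201 had 439 TPM in replicate 2, against 417 TPM in replicate 1, which was 92.5% and 91.3% of the gene. Aldoa-202, which adds a coding exon of its own at chr7:126797974-126798114 on the minus strand, had 11.6 TPM in replicate 2 and 11.7 in replicate 1. Aldoa-203, which begins at another first exon, had 9.67 TPM in replicate 2, against 12.2 TPM in replicate 1, with deposited intervals, again of the posterior mean, of 3.10 to 15.7 TPM and 7.19 to 20.3 TPM in these libraries. Of the 10 Aldoa transcripts, 8 reached a TPM of 1 in both libraries.

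**Figure D3:**
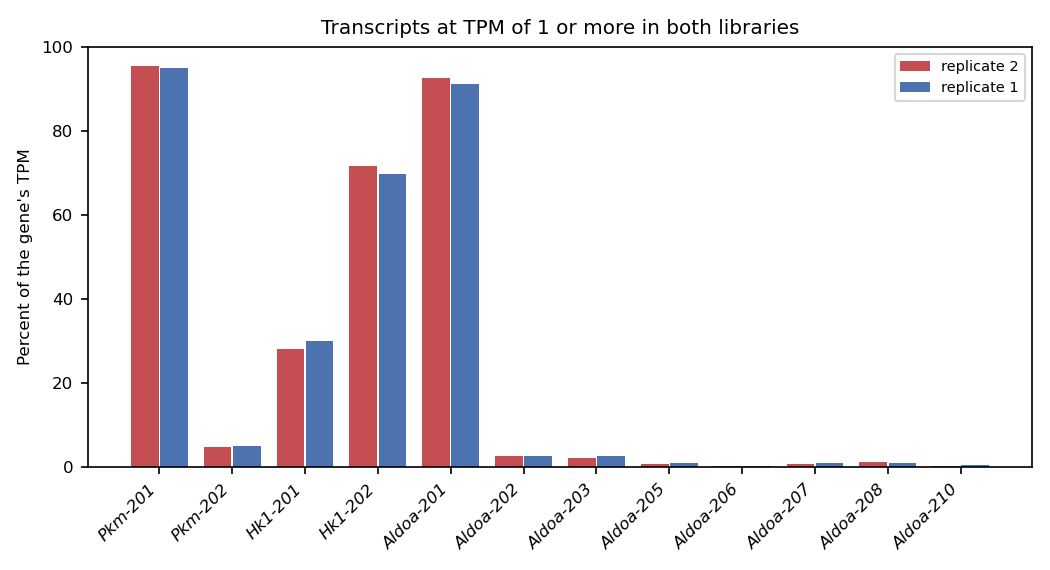
Percent of the gene's TPM held by each Pkm, Hk1 and Aldoa transcript that reached a TPM of 1 in both libraries, with replicate 2 left of replicate 1 in each pair. The leading transcripts are Pkm-201 at 95.4% and 94.9%, Hk1-202 at 71.6% and 69.7% and Aldoa-201 at 92.5% and 91.3% in replicate 2 and replicate 1.

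Between the libraries, most of the genes lay close together. Ratios are replicate 2 over replicate 1, from expected counts scaled by TMM, a method that centres the ratios on the bulk of genes. An exact binomial test compared the counts of each gene with a mean TPM of 1 or more, with Benjamini-Hochberg adjustment over 14870 genes. A gene was called at an adjusted p under 0.05 and at least 2-fold. Of the 35 genes 32 were tested, and 29 of these lay within 1.25-fold. The median log2 ratio was -0.05 over the 32 genes and -0.0016 over all genes tested, and the median size of a log2 ratio was 0.12 and 0.10. The p-values compare these libraries and no condition, and the intervals cover counting error only.

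Pgam2 was the only called gene of the 32, lower in replicate 2. Over all genes tested, 1.14% were called, 0.780% lower and 0.356% higher in replicate 2. No glycolytic gene was called higher by this test or by edgeR's exact test. At an unadjusted p under 0.05 in the exact binomial test were 18 of the 32, 7 higher and 11 lower in replicate 2. The share of all genes at that unadjusted cutoff was not computed, here or for the lists below. Pgam2 had 22 counts in replicate 2 and 254 in replicate 1. Its log2 ratio was -3.56, with a 95% interval of -4.29 to -2.96, at an exact binomial, Benjamini-Hochberg adjusted p of 4.18e-51. In edgeR's exact test the adjusted p was 7.66e-25, with a common dispersion, a coefficient of variation of 9.57%, estimated by treating the same 2 libraries as 1 group, so it rests on no further replicates.

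The enolase genes Eno3 and Eno2 came next in size and pointed in opposite directions. Eno3 had 305 counts in replicate 2 and 445 in replicate 1, a log2 ratio of -0.61 (exact binomial, Benjamini-Hochberg adjusted p = 4.03e-07). Eno2 had 120 counts in replicate 2 and 69 in replicate 1, a log2 ratio of 0.73 (exact binomial, Benjamini-Hochberg adjusted p = 0.00609). Both fell short of 2-fold, and in edgeR's exact test the adjusted p was 0.467 for Eno3 and 0.704 for Eno2. At a limit of 1.5-fold, these genes and Pgam2 made 3 calls of 32, 1 higher and 2 lower in replicate 2, against 2.68% of all genes tested, 0.975% higher and 1.70% lower.

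At any size, 14 of the 32 genes, or 43.8%, passed the adjusted p, 6 higher and 8 lower in replicate 2, against 22.5% of all genes tested, 11.0% higher and 11.5% lower. Scaling to the spike-ins, which took 3.96% of counts in replicate 2 and 4.94% in replicate 1, shifted the median gene by 0.34 on the log2 scale and turned the split to 28 higher and 2 lower, against 76.7% of all genes tested higher and 1.13% lower, or 77.9% in all, under that scaling. Ratios here are therefore relative to the median gene. On that basis the 8 lower genes were Slc2a1, Pfkfb4, Pgam1, Pgam2, Eno3, Ldhb, Slc16a1 and Pdk1, and the 6 higher genes were Slc2a4, Pfkl, Gapdh, Eno1, Eno2 and Pkm. Genes with the most counts passed at small sizes, such as Pkm, with 61356 counts in replicate 2 and 55811 in replicate 1, at a log2 ratio of 0.07 and an exact binomial, Benjamini-Hochberg adjusted p of 1.91e-16. Slc2a1 had 3388 counts in replicate 2 and 3839 in replicate 1, a log2 ratio of -0.24 at an exact binomial, Benjamini-Hochberg adjusted p of 6.43e-11. Pfkl had 9625 counts in replicate 2 and 8370 in replicate 1, a log2 ratio of 0.14 at an exact binomial, Benjamini-Hochberg adjusted p of 5.93e-09. With edgeR's exact test Pgam2 was the only gene of the 32 to pass at any size.

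Most tested heart muscle markers and some skeletal muscle markers were also lower in replicate 2, as were the muscle isozymes Pgam2 and Eno3. Other genes known from muscle or heart had log2 ratios of 0.20 for Slc2a4, 0.05 for Pfkm and 0.15 for Pfkfb2, and the ratio of Aldoa was -0.0002. Ldhb, abundant in heart, was lower at -0.13. Pygm, the muscle glycogen phosphorylase of the glycogen list below, had 4.90 TPM in replicate 2 and 7.29 in replicate 1. Its log2 ratio was -0.64, short of 2-fold (exact binomial, Benjamini-Hochberg adjusted p = 2.47e-06). In edgeR's exact test its adjusted p was 0.409. Of 15 heart muscle markers, 12 were tested and 10 were called lower in replicate 2, while none was called higher, and their summed TPM was 137 in replicate 2 and 705 in replicate 1. The list's median log2 ratio was -2.93. Myh7 and Pln were tested and not called, at log2 ratios of 0.03 and -0.16. Myh6, the atrial myosin heavy chain, had 1.59 TPM in replicate 2 and 40.6 in replicate 1, and Myl7, the atrial light chain, 17.3 TPM in replicate 2, against 270 TPM in replicate 1. Nppa, the atrial natriuretic peptide, was at 0 counts in replicate 2, against 234 in replicate 1, which is at least 81.5-fold lower in replicate 2 when 3 counts are set as its floor. Of 6 tested skeletal muscle markers 3 were called lower in replicate 2 and none higher. The 12 listed had a summed TPM of 48.5 in replicate 2 and 64.7 in replicate 1. Mylpf, Tnnt3 and Des were tested and not called, at log2 ratios of 0.25, -0.42 and -0.16. The part of the muscle markers in the results for Pgam2 and Eno3 was not tested.

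Markers of blood, nerve and liver were set beside the glycolytic genes in the same way. All 3 tested neutrophil markers were called lower in replicate 2, with a summed TPM of 8.81 in replicate 2 and 49.8 in replicate 1 over the 8 listed. Hk3, which white blood cells express, had 67 counts in replicate 2 and 60 in replicate 1, a log2 ratio of 0.10 with a 95% interval of -0.43 to 0.62, and was not among the genes tested. Neuron and glia markers, which stand beside Eno2, summed to 25.4 TPM in replicate 2 and 28.2 in replicate 1. None of the 7 tested was called by this test or by edgeR. Stmn2 and Tubb3 passed the adjusted p of the exact binomial test short of 2-fold. Both were lower in replicate 2, at log2 ratios of -0.72 and -0.85, while Eno2 was higher. At any size, 11.5% of all genes tested passed as lower. Of 5 tested liver markers 2 were called higher in replicate 2, Afp and Apoa1, at log2 ratios of 1.09 and 1.29, and edgeR called 1. The median log2 ratio of the 5 was 1.09. At any size, 3 passed the adjusted p as higher and 1 as lower, against 11.0% and 11.5% of all genes tested. The 10 listed summed to 40.3 TPM in replicate 2 and 41.3 in replicate 1, most of it from Trf. Trf, the highest of them, was not called, at a log2 ratio of -0.20. It had 29.8 TPM in replicate 2, against 36.9 TPM in replicate 1. Slc2a2 and Pklr, the carrier and kinase of liver, stayed at 4 counts or fewer. None of the 11 tested erythroid and 10 tested macrophage markers was called by this test or by edgeR. In the exact binomial test 4 and 6 of them were at an unadjusted p under 0.05. Past the adjusted p at any size were 1 erythroid marker higher and 2 lower in replicate 2, and 5 macrophage markers lower. The part of these markers in the results was not tested.

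**Figure D4:**
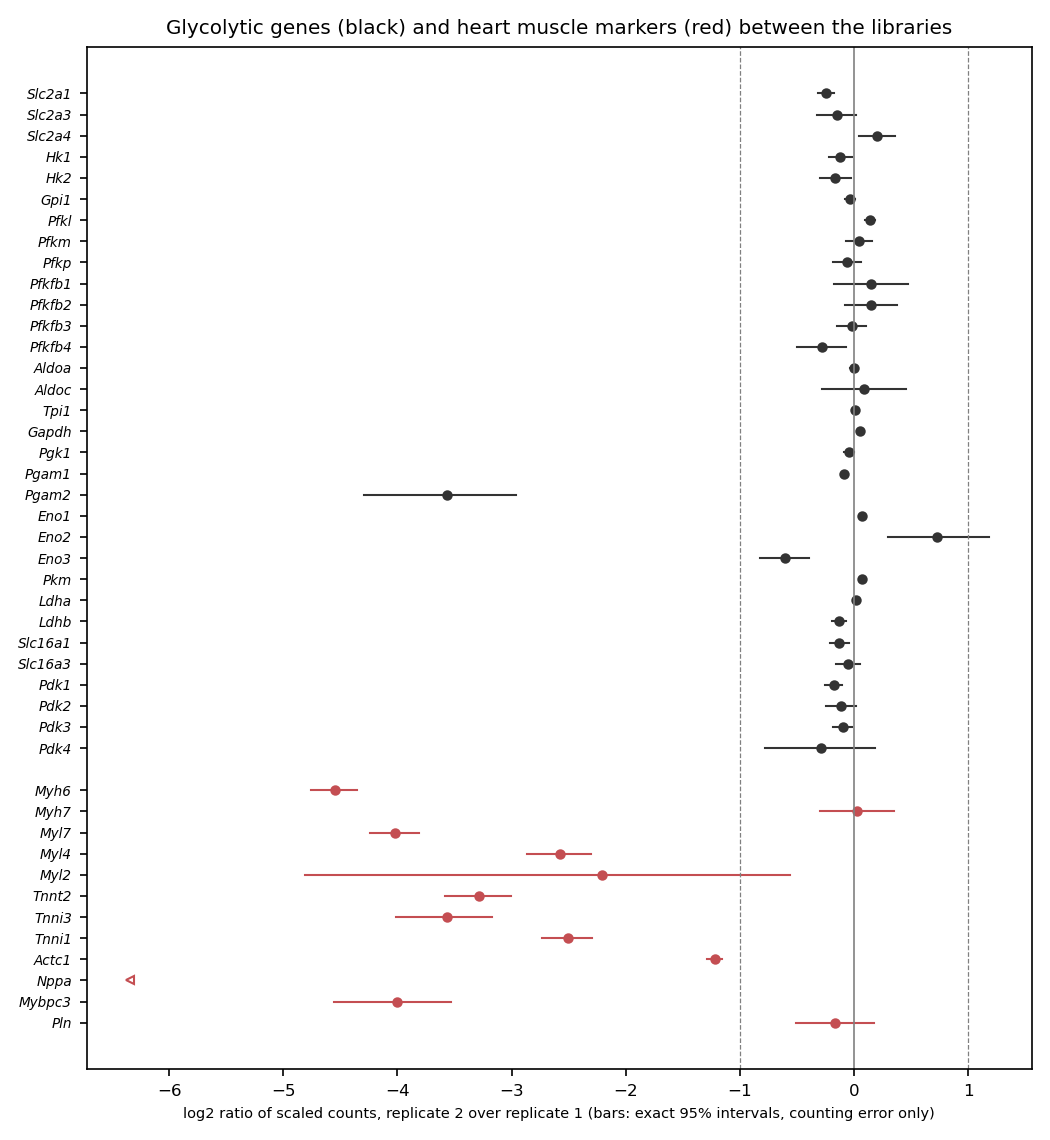
Log2 ratio of scaled counts, replicate 2 over replicate 1, for the 32 tested glycolytic genes in black and the 12 tested heart muscle markers in red, with exact 95% intervals for counting error, dashed lines at 2-fold, and an open triangle for Nppa at the bound set by 3 counts. The black points lie near 0 except Pgam2 at -3.56, which lies within the range of the red points, Eno3 at -0.61 and Eno2 at 0.73.

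Neighbouring pathways were detected to different degrees, and of 65 genes tested in these 7 lists none was called between the libraries by the exact binomial test or by edgeR. At an unadjusted p under 0.05 in the exact binomial test, 2 to 6 genes of each list passed. At any size, 0 to 1 gene of each list passed the adjusted p as higher in replicate 2, and 0 to 5 passed as lower. Over all genes tested, 11.0% passed as higher and 11.5% as lower. Of 8 gluconeogenesis genes, which run the pathway backward, 4 were detected, at a median of 5.5 TPM against the 20.56 TPM of the glycolytic genes. They were led by Pck2, the mitochondrial carboxykinase, at 28.8 TPM in replicate 2, against 26.0 TPM in replicate 1, G6pc3, the widely expressed glucose phosphatase, at 27.8 and 24.4 TPM, and Pcx, pyruvate carboxylase, at 11.2 and 9.44 TPM in the same libraries. G6pc, the liver glucose phosphatase, had 0 counts in both libraries. Fbp1, the liver fructose bisphosphatase, had 0.79 TPM in replicate 2 and 0.90 in replicate 1. Slc37a4, the carrier of glucose phosphate known from liver, was detected, at 10.2 TPM in replicate 2, against 10.1 TPM in replicate 1.

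Pathways that branch from glycolysis were well represented. Of 10 pentose phosphate genes 8 were detected. Their median was 38.7 TPM, and the highest was Pgls, the lactonase of the pathway, at 202 TPM in replicate 2, against 198 TPM in replicate 1. Taldo1, transaldolase, had 189 TPM in replicate 2 and 194 in replicate 1, and Tkt, transketolase, 71.8 TPM in replicate 2, against 63.4 TPM in replicate 1. Of 11 glycogen genes 10 were detected, at a median of 31.1 TPM. Gyg, the primer glycogenin, led them at 290.5 TPM in replicate 2 and 283 in replicate 1, ahead of Ugp2, which makes the sugar donor, at 67.3 and 67.8 TPM and of Pgm1, a phosphoglucomutase, at 42.7 and 47.4 TPM in the same libraries.

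Genes for pyruvate entry and pyruvate dehydrogenase were present beside the kinases that switch that complex off. Of 11 genes 10 were detected, at a median of 42.5 TPM. Pdhb, a subunit of pyruvate dehydrogenase, had 124 TPM in replicate 2, against 127 TPM in replicate 1. Mpc1, a subunit of the mitochondrial pyruvate carrier, had 125 TPM in replicate 2 and 126 in replicate 1, and Dld, the shared dehydrogenase subunit, 108 TPM in replicate 2, against 109 TPM in replicate 1. Each of these stood above Pdk3, the highest of the pyruvate dehydrogenase kinases.

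Most other isozymes and carriers were low. Of 27 such genes 10 were detected, at a median of 0.635 TPM, and the highest was Bsg, the basigin chaperone that brings the lactate carriers to the cell surface, at 703 TPM in replicate 2 and 661 in replicate 1. Bpgm, the bisphosphoglycerate mutase of red cells, had 40.7 TPM in replicate 2, against 38.8 TPM in replicate 1. Emb, another chaperone of lactate carriers, had 11.5 TPM in replicate 2 and 12.6 in replicate 1.

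Known regulators of the pathway were all detected. The 8 regulators of Pkm splicing had a median of 220.3 TPM, led by Srsf3, a promoter of the M2 exon, at 818 TPM in replicate 2, against 816 TPM in replicate 1. Hnrnpa1, which represses the M1 exon, had 797 TPM in replicate 2 and 767 in replicate 1, and Hnrnpa2b1, with the same known role, 505 TPM in replicate 2, against 489 TPM in replicate 1. All 13 oxygen and growth regulators were detected, at a median of 32.1 TPM. Hif1a, the oxygen-sensing factor, had 90.2 TPM in replicate 2 and 88.4 in replicate 1, Myc 80.5 TPM in replicate 2, against 75.5 TPM in replicate 1, and Txnip, which restrains glucose uptake, 62.3 TPM in replicate 2 and 76.2 in replicate 1.

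The 250 bases before the annotated starts of the genes were searched on both strands, with sequences from RefSeq on GRCm38.p6, where 33 of the 35 genes had 53 windows. Entries for Slc2a3 and Slc2a4 were not matched. The letters ACGTG, the core of the site at which hypoxia-inducible factors bind, were found in 19 of the 53 windows (35.8%), against 16.6% of 32851 windows of all genes. Windows of the same gene can overlap, and by gene 15 of the 33 had a match. ACGTG holds a CG pair, and the windows of the glycolytic genes had a median of 11 such pairs, against 6 over all windows. The part of these pairs in the ACGTG share was not tested. The letters CANNTG, the E-box bound by muscle and other factors, stood in 64.2% of the windows, against 66.2% of all, and the TATA box letters TATAAA in 5.66%, against 12.4%. CACGTG holds both ACGTG and CANNTG. The windows of the glycolytic genes had a median GC content of 58.4%, against 52.4% over all windows, and the windows of the 11 genes at 100 TPM or more had 61.6%, against 54.8% for the other genes. A match is a description of the letters and no evidence of binding.

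Promoters are shown for the muscle genes Pgam2 and Eno3, which were lower in replicate 2, and for Ldha, which had the most ACGTG matches. Capitals mark CANNTG in Pgam2, at chr11:5803797-5804046 on the minus strand, with 5 matches, and in Eno3, at chr11:70656926-70657175 on the plus strand, with 1. In Ldha, at chr7:46845554-46845803 on the plus strand, capitals mark ACGTG on either strand, with 5 matches because each CACGTG is read on both strands.
Pgam2 promoter: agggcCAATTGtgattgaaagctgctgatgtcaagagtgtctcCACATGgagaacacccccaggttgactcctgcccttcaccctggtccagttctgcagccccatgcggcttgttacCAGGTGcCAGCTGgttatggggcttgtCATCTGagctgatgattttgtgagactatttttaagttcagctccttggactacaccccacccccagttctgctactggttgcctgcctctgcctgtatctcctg
Eno3 promoter: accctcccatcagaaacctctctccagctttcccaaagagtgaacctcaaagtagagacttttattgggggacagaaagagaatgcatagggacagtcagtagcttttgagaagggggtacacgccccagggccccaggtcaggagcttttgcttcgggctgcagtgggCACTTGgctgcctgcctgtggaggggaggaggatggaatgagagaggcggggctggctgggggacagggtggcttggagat
Ldha promoter: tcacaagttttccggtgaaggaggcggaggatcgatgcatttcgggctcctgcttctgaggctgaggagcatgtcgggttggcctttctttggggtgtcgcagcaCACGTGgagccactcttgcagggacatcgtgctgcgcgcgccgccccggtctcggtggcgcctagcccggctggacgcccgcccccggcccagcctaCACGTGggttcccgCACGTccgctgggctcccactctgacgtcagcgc

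Several of the highest genes have near-identical copies in the genome, which can take or give reads. With stretches of at least 300 nt at 95% identity outside the gene's own locus, 7 of the 35 genes had a copy, and 101 of the 105 copies were annotated as pseudogenes. Gapdh had 95 copies, whose summed TPM was 6.85% of that of gene and copies in replicate 2 and 6.06% in replicate 1. For Pgk1 the copies held 16.4% in replicate 2 and 14.4% in replicate 1, and for Pgam1 11.8% in replicate 2 and 9.62% in replicate 1. Reads of a copy that were assigned to its gene are not counted in these shares, so the levels of these genes are uncertain by an amount that the shares do not bound.

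The highest copies were Pgam1-ps2, Gm4735 and Pgk1-rs7, all processed pseudogenes. Pgam1-ps2 had 68.4 TPM in replicate 2 and 55.3 in replicate 1. Gm4735, which matches Eno1, had 44.0 TPM in replicate 2, against 37.6 TPM in replicate 1. Pgk1-rs7 had 41.8 TPM in replicate 2 and 37.0 in replicate 1. A further 4 genes share such a stretch with a gene that overlaps their own locus, namely Pfkp with Pitrm1, Pfkm with Gm26513, Pfkfb2 with Gm29427 and Pklr with Hcn3, and reads from the shared stretch cannot be told apart. Pitrm1, a mitochondrial peptidase gene that shares 748 nt with Pfkp, had 85.6 TPM in replicate 2, against 79.6 TPM in replicate 1. The deposited posterior SD of the count, which reflects reads that could be assigned to several genes, was at most 1.66% of the count for all the genes except Pklr. It was 0 for Pgam2, Eno2 and Eno3 in both libraries.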

How the data were processed

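Total RNA libraries from 2 biological replicates of E14.5 lung were analysed from the gene and transcript tables that the authors deposited. Per the file headers, these tables hold an expected count, TPM over all features including spike-ins, the bounds of an interval of TPM (used as a signal), posterior mean TPM, the posterior SD of the count, and, for transcripts, the percent of a gene's TPM held by each. The authors' read-me files name mm10 and GENCODE M4. The aligner, the quantifier and the strand setting are each not given in the sources used here, and reads of genes that overlap cannot be told apart. Symbols, exons and 1-based coordinates came from GENCODE M21 on GRCm38 by identifier without version, so some transcript models differ from M4, such as that of Pkm-202.

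Expected counts were rounded to whole numbers, scaled by TMM (edgeR 4.0.16, R 4.3.3) and compared by an exact two-sided binomial test (SciPy 1.17.1) over 14870 genes with a mean TPM of 1 or more, with Benjamini-Hochberg adjustment, after adding 0.5 to each count for ratios. With 1 library on each side, edgeR's quasi-likelihood test has no residual degrees of freedom, so edgeR's exact test with a common dispersion from both libraries taken as 1 group was used as an alternative. On counts simulated for this comparison with counting error only, 0 of 14670 unchanged genes were called. Called were 2 of 50 genes changed 1.5-fold, 44 of 50 changed 2.5-fold, 47 of 50 changed 4-fold and 49 of 50 changed 8-fold. The simulation held no further variation between libraries, so it does not give the rate of false calls in the real libraries. Alternatives were other scalings, filters, fold limits and abundance estimates, and each library left out. Copies were found with BLAST 2.17.0, and genes that overlap the matched gene's own locus were kept apart from them. Their minimum length of 300 nt was set after shorter matches, mostly repeats, had been seen.

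The genes and lists were chosen with earlier results of these data known. All 35 genes are named, and of each pathway list the 3 highest by mean TPM and any called member. G6pc, Fbp1, Slc37a4, Slc2a8, Slc2a10, Pygm and the cell type markers given with values were named after their values were seen. Of 14 erythroid symbols 13 were matched. No molecular identifiers are mentioned, so intervals cover counting error only.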

Additional observations from a re-analysis of the deposited data

How the results depend on the processing

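Leaving out each library in turn gave 31 to 32 detected genes, 5 to 5 steps led by 1 gene, a median level of 21.03 to 21.42 TPM, against 20.56 TPM over the means, and shares of 94.9 to 95.4% for the Pkm M2 exon, 69.7 to 71.6% for Hk1-202 and 91.3 to 92.5% for Aldoa-201. The median level was 22.82 TPM with TPM rescaled over mouse genes and 24.43 TPM over the genes with a mean TPM of 1 or more. The count of called genes, 1 in the report, was 2 with spike-in scaling, which added Eno2 at a log2 ratio of 1.07, 3 at a 1.5-fold limit, 14 with no fold limit and 0 without Pgam2, the last an alternative chosen after seeing the data. It was 1 with DESeq2 size factors, summed counts, no filter on low values or edgeR's exact test. The median log2 ratio was 0.30 with spike-in scaling, against a shift of 0.34 for the median gene, and 18 of the 32 ratios, none of them called, changed sign there. The share of Hk1-202 was 62.1% on posterior mean TPM, against 70.6% on TPM. Its own posterior mean was 11.9 TPM in replicate 2 and 12.0 in replicate 1. The 17 Hk1 transcripts at a TPM of 0 had posterior means of 0.05 to 0.32 TPM, which enter the gene's total. With expected counts the leading gene of a step was the same in 8 of 11 steps, all but hexokinase, monocarboxylate carriers and pyruvate dehydrogenase kinase, and with posterior mean TPM in 10 of 11, all but hexokinase. No paired analysis was possible because the 2 libraries form a single group. A group of 2 is too small to show whether Pgam2, or any other gene, varies between embryos.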
